A study of Mus musculus with 4 samples.

Results

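This comparison sets the colonic epithelium of mice labelled as lacking both Bmi1 and Mel18 (genotype Bmi1ΔIEC Mel18ΔIEC, the double knockout) against that of mice labelled as lacking Mel18 alone (Mel18ΔIEC). It is the array of the first genotype minus the array of the second, so it reads the added Bmi1 label on a background that carries the Mel18 label on both sides. The arrays were picked by their genotype labels and are 2 of the 4 in the series. The other 2 carry the labels wild type and Bmi1ΔIEC. All 4 came from C57BL/6 mice, 6 to 8 weeks old and described as sex-matched. They were given an injection of azoxymethane, a colon carcinogen, at 10 mg/kg. From 5 days later they had drinking water with 3.5% dextran sulfate sodium (DSS), which injures the epithelium, for 5 days. This course models colitis-associated colorectal cancer, and the wild-type mice went through it too. On day 12 the epithelium was shaken from colon pieces in EDTA, with no sort for epithelial cells in the protocol, and total RNA was labelled for Affymetrix Mouse 430 2.0 arrays. ΔIEC denotes loss in intestinal epithelial cells. Neither the driver of the deletion nor the deleted exons are named in the labels. In its design text the study puts a number after each genotype, 1 for the double knockout, 2 for Mel18ΔIEC, 3 for Bmi1ΔIEC and 4 for wild type, and leaves unsaid if a number stands for mice or for a sample.

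Bmi1 and Mel18, the product of the gene Pcgf2, are closely related RING-finger proteins. Either can take the same place beside the ubiquitin ligases Ring1 and Rnf2 in Polycomb repressive complex 1 (PRC1), which marks histone H2A and compacts chromatin that Polycomb repressive complex 2 (PRC2) has methylated. Their best-known target is Cdkn2a, the locus of the cell cycle inhibitor p16Ink4a and of Arf, which activates p53. In the gut, Bmi1 is also known from work on stem cells of the crypt.

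Values are RMA intensities on a linear scale and differences are in log2 units, double knockout minus Mel18-labelled array. Where 4 values follow a gene, they are its intensities in a fixed order: wild type, the Bmi1 label alone, the Mel18 label alone and the double knockout. With 1 array a genotype there is no spread between replicates, no test could be run, and a difference between 2 arrays cannot be told apart from a difference between the mice or the preparations behind them. A gene was called higher or lower at a difference of 2-fold or more, provided that the brighter array reached a floor of 33.4, the median of all values. Where the lower value lay under that floor, the fold was taken against the floor and is written as "at least". All gene lists used below were chosen with earlier results of these data known, so their counts are a description only. Some genes stand on several lists and are counted in each.

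Of 18193 genes with a probe set of their own, 11879 reached the floor on the double-knockout or the Mel18-labelled array and 6314 did not. Of those 11879 genes, 456 were called higher (3.84%) and 538 lower (4.53%), and the median gene lay at -0.09. These shares are the background to every count of list members below. Differences of at least 4-fold were found for 99 genes on the higher side and 64 on the lower side, and of at least 8-fold for 33 and 11. The split between the directions depends on scaling. It was 636 higher and 347 lower when each array was centred on those of its genes that reached the floor, which moved the median gene by 0.20, so 45.9% of the called genes were higher as deposited and 64.7% after that centring. The cloud of genes was otherwise tight, with a Spearman correlation over all probe sets of 0.977. Where a gene had several probe sets above the floor, they differed among themselves with a pooled SD of 0.36 log2 units, which is a technical spread within an array and no replicate error.

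**Figure D1:**
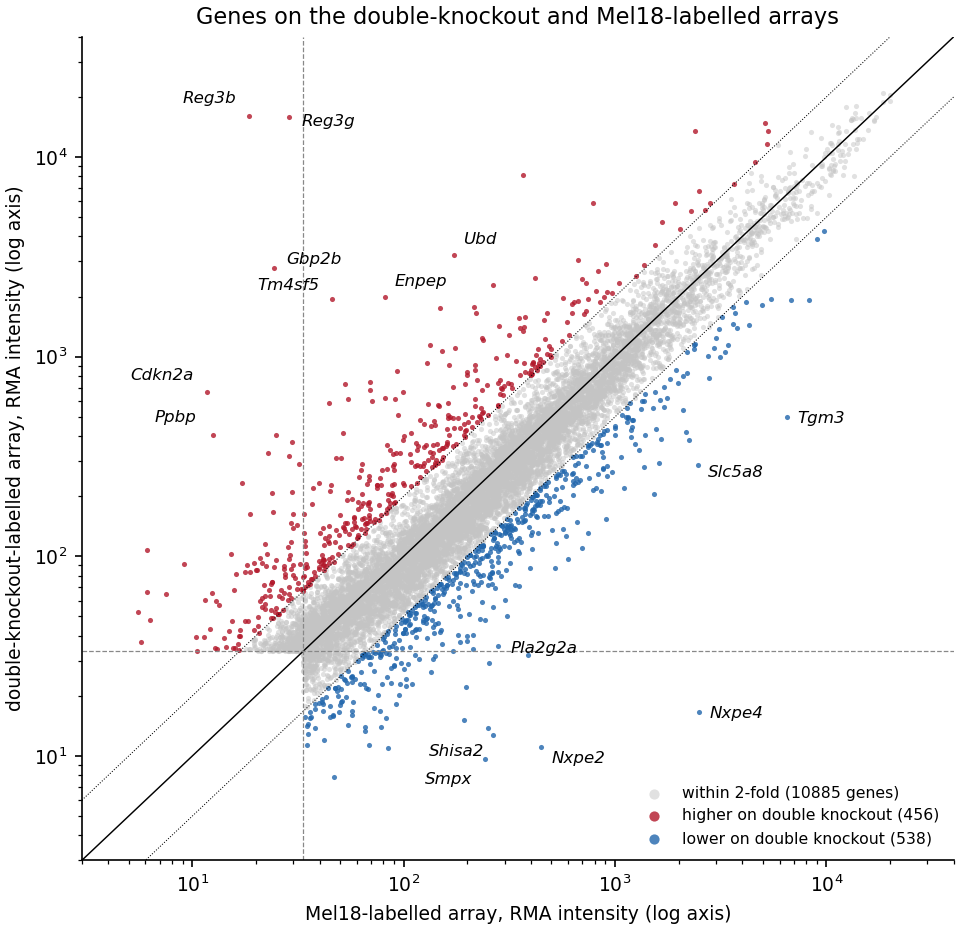
Each point is a gene that reached the floor, with its RMA intensity on the Mel18-labelled array (x axis) and on the double-knockout-labelled array (y axis), both log axes. The solid line marks equality, the dotted lines 2-fold and the dashed lines the floor of 33.4. The 456 genes called higher are red and the 538 called lower are blue, and Reg3b and Reg3g stand farthest above the line and Nxpe4 farthest below it.

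The targeted genes came first. The probe sets of Bmi1 were brighter, not dimmer, on the array with the added Bmi1 label: they read 116, 334, 159.6 and 432 for the brighter probe set, and 88.4, 339, 135 and 399 for the other. Bmi1 was therefore 2.70-fold higher on the double-knockout-labelled than on the Mel18-labelled array. The same label went with a higher Bmi1 signal on the wild-type background. Pcgf2 read 30.2, 33.4, 39.8 and 32, near the floor on every array. Without the place of the probes relative to the deleted exons these values do not check the labels, and arrays are called here by what their labels say. Of the 20 measured neighbours of Bmi1 on chromosome 2, 8 reached the floor and 1 was called, namely Armc3, at least 3.53-fold lower. None of the 12 neighbours of Pcgf2 on chromosome 11 that reached the floor was called.

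Other facts of the arrays bear on every value below. The labelled cell type was read from its markers. Epcam, Cdh1 and Krt8, a surface adhesion protein, E-cadherin and a keratin of simple epithelia, lay at 0.09, 0.07 and 0.03. The 23 epithelial markers at or above the floor had a summed intensity of 117367, 107889, 113037 and 125823. Not all of them were even: the claudin Cldn4 was called higher at 1.91 and the claudin Cldn15 lower at -1.90, the ends of the list. Xist, the RNA that coats the inactive X chromosome, read 122, 45.5, 54.2 and 611, highest on the double-knockout-labelled array in all 3 of its probe sets. The Y-linked Eif2s3y read 246, 282, 198 and 229 and Kdm5d 158, 250.3, 204 and 189, above the floor on every array. The mice are described as sex-matched, yet Xist differed 11.3-fold between the 2 arrays compared. The sexes of the mice behind each array are not given, and the part of sex in the differences was not tested.

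Reg3b and Reg3g had the largest differences of all genes. They encode secreted antibacterial lectins that act at the mucus layer and are induced in the gut by microbes and interleukin-22. Reg3b read 731, 19.1, 18.6 and 16063, and its second probe set read 999, 18.5, 15.3 and 10572. Reg3g, with 1 probe set, read 523, 20.8, 28.8 and 15800.0. Both were under the floor on the Mel18-labelled and on the Bmi1-labelled array, intermediate on wild type and among the brightest signals of the double-knockout-labelled array, at least 482-fold and at least 474-fold above the Mel18-labelled array. The rest of the family did not share this. Reg4, a goblet and endocrine cell lectin, read 2261, 5284, 3983 and 2776, a difference of -0.52, while Reg1, Reg2, Reg3a and Reg3d lay under the floor on both arrays compared.

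The promoters of this pair are shown because both genes lie on chromosome 6 and went together. They are the 250 bases before the start, from RefSeq on build GRCm38.p6, printed 5′ to 3′ on the strand of the gene. That of Reg3b is chr6:78370635-78370884 on the plus strand and that of Reg3g chr6:78468875-78469124 on the minus strand. Capitals mark matches, on either strand, to the STAT motif TTCNNNGAA.
Reg3b: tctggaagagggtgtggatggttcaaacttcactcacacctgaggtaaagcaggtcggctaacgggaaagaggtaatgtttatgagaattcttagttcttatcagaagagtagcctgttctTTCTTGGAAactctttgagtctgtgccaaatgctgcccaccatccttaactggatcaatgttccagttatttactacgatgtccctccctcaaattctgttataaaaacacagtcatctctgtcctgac
Reg3g: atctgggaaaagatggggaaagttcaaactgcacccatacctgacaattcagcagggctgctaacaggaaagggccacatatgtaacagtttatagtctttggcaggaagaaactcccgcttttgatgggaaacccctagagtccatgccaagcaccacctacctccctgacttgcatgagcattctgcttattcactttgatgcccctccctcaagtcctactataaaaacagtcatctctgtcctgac
Over an alignment of 253 columns 173 bases were identical (68.4%), and the longest shared run was 20 bases long, at the end of both windows. The Reg3b window had 1 match to the motif, 129 bases before the start, and the Reg3g window none. The motif occurs in 7.02% of all 32851 promoter windows of this length in the table and in 9.91% of the 343 genes called higher that have a window, against 7.07% of the 9584 genes tested that have one.

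Cdkn2a stood out among the cell cycle inhibitors. It read 10.6, 11.9, 11.7 and 662, at background on 3 arrays and at least 19.8-fold higher on the double-knockout-labelled array than on the Mel18-labelled one. This rests on 1 probe set, which cannot separate p16Ink4a from Arf transcripts here. Its neighbour Cdkn2b, which encodes p15Ink4b, read 282, 491, 648 and 817, a difference of 0.33 within the 2-fold rule. Cdkn1b, which encodes p27, was lower, with 511, 809, 782 and 368 and a difference of -1.09, and after the centring described above it was no longer past the rule. Cdkn1a, which encodes the p53 target p21, lay at 0.20. Among p53 and its targets, 2 of 19 members at the floor were higher, beside 3.84% of all genes tested. They were Pmaip1, which encodes the pro-death protein Noxa, at 1.17 and Phlda3, an Akt inhibitor, at 1.04. Mdm2 and Btg2, other p53 targets, lay at -0.01 and 0.00.

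Polycomb subunits themselves stayed within 2-fold. None of the 19 PRC1 subunits and none of the 11 PRC2 subunits at or above the floor was called. Their medians were -0.44 and -0.29, beside -0.09 for all genes tested, and stayed below 0 under each scaling tried. In PRC1 the lowest were Pcgf1, the RING-finger partner of a variant complex, at -0.85 and Phc1 at -0.74. Rnf2 and Ring1, the ligases, lay at -0.46 and -0.42, and Cbx7 and Cbx8, readers of the PRC2 mark, at -0.47 and -0.61. In PRC2 Eed, Ezh2, the methyltransferase, and Suz12 lay at -0.67, -0.61 and 0.11. Of 17 Hox genes at the floor, classic Polycomb targets, 1 was called, near the share of 8.37% over all genes tested. It was Hoxd10, lower with 125, 197, 199.8 and 39.9 and a difference of -2.32. The largest positive difference among the Hox genes at the floor was 0.84 for Hoxb4.

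Genes of small intestinal absorption were prominent among the higher genes. Of 27 small intestine and ileum markers at the floor, 16 were higher (14 with values under the floor set to it) and none lower, with a median of 1.37. This list was drawn up with several of these genes already known to be high on the double-knockout-labelled array, so its count is a description only. Tm4sf5, a tetraspan membrane protein, read 30.7, 48.5, 45.7 and 1948, which is 42.6-fold. Enpep, a brush border aminopeptidase, read 29.9, 264, 81.2 and 1994, which is 24.6-fold. Mttp, which loads lipid onto apolipoprotein B, read 18.7, 31.6, 29.5 and 376, at least 11.3-fold. In these genes the double-knockout-labelled array was far above the other 3, and only for Enpep, of the genes in this paragraph, was a second array clearly raised, the Bmi1-labelled one.

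Further members followed the same layout. Vnn1, a pantetheinase, read 16.1, 31.8, 24.8 and 407, and Naaladl1, a peptidase, 62.2, 126, 214 and 1774. Slc10a2, the ileal bile acid transporter, read 8.47, 7.33, 6.09 and 66, above the floor on the double-knockout-labelled array only and at least 1.98-fold higher, so with values under the floor set to it the difference no longer passed the rule. Fabp2 and Slc5a1, an absorptive fatty acid binding protein and the sodium-glucose transporter, lay at 0.00 and 0.06, and Slc15a1, the peptide transporter, at -0.84. Fabp1, Lct and Anpep, defining genes of small intestinal villi, were under the floor on both arrays. Abcg5, a sterol exporter outside that list, read 134, 158, 148 and 1746, and Prap1 and Sptssb, a secreted proline-rich protein and a subunit of sphingolipid synthesis, were at least 9.88-fold and 7.01-fold higher.

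Regional transcription factors were mixed. Pdx1, a factor of pancreas and duodenum, read 25.9, 58.8, 23.9 and 208 and Gata4, a factor of the proximal small intestine, 21, 19.9, 19.9 and 85.6. Creb3l3, a liver and gut factor of lipid metabolism, lay at 1.87. The second probe sets of Pdx1 and Gata4 differed by only 0.84 and 0.37, the latter under the floor on every array. Cdx1, a caudal factor of the intestine, lay at -0.97, and the remaining members at the floor were within 2-fold. Of the 18 measured members of the list, 7 were under the floor on both arrays.

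Genes of the colonic surface were called in both directions, more of them lower. Of 31 colonocyte markers at the floor, 9 were lower and 3 higher, with a median of -0.34. By sign alone they were like the rest, with 12 of 31 above 0 beside 4819 of all 11879 genes tested. Slc5a8, a butyrate transporter, read 1282, 2498, 2458 and 287, 8.57-fold lower. The water channel Aqp8 read 1453, 1849, 2102 and 540.4, the bicarbonate channel Best2 390.1, 686, 786 and 215 and Hsd11b2, which protects the mineralocorticoid receptor, 1844, 2547, 3143 and 993. Atp12a, the colonic proton-potassium pump, read 8787, 3754, 4306 and 1448, and Slc26a2, a sulfate transporter, 4121, 5235, 5483 and 1941. In each of these except Atp12a, for which wild type was highest, the Mel18-labelled or the Bmi1-labelled array was highest, and in all 6 the double-knockout-labelled array was lowest. The higher members were Car1, a carbonic anhydrase, at 1.54, Guca2a, which encodes guanylin, at 1.36, and Krt20, a keratin of mature surface cells, at 1.00, on the edge of the rule. Of the goblet cell markers 2 were higher and 2 lower of 26, beside 3.84% and 4.53% of all genes tested. The mucin Muc2 and the trefoil factor Tff3 lay at 0.33 and 0.38.

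The lower side held many genes that read high on both single-knockout-labelled arrays. Nxpe4, a member of the neurexophilin-like family, had the largest negative difference and read 21.1, 1562, 2496 and 16.6, at least 74.8-fold lower. Its relative Nxpe2 read 50.1, 376, 445 and 11.1. Tgm3, a transglutaminase, read 3174, 6581, 6487 and 498, 13-fold lower. For Nxpe4 the wild-type array was as dim as the double-knockout-labelled one, under the floor, while for Tgm3 and Nxpe2 it lay between that array and the others.

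Smpx, Shisa2 and Htr4, a small muscle protein, a modulator of growth factor receptors and a serotonin receptor, were under the floor on the double-knockout-labelled array and at least 7.25-fold, 7.90-fold and 7.49-fold lower. For Htr4 this was seen by 1 probe set, and the other was under the floor throughout. Tmprss13, a membrane protease, and Fut9, a fucosyltransferase, were at least 5.79-fold and 5.88-fold lower. Of 22 secreted antimicrobials outside the Reg family at the floor, 6 were higher and 3 lower, with a median of 0.19. The lower members were the following 3. Defb45, a beta-defensin, read 189, 366, 254 and 29.2, Ang4, a goblet and Paneth cell ribonuclease, 244, 354, 307 and 50.1, and Pla2g2a, an antimicrobial phospholipase, 534, 114, 279 and 35.4. Unlike Defb45 and Ang4, Pla2g2a was highest on the wild-type array. The sulfur amino acid enzyme Cbs read 147, 192, 213 and 34.2 and the carbonyl reductase Cbr2 781, 539.9, 696 and 110.3, with the double-knockout-labelled array lowest in both.

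**Figure D2:**
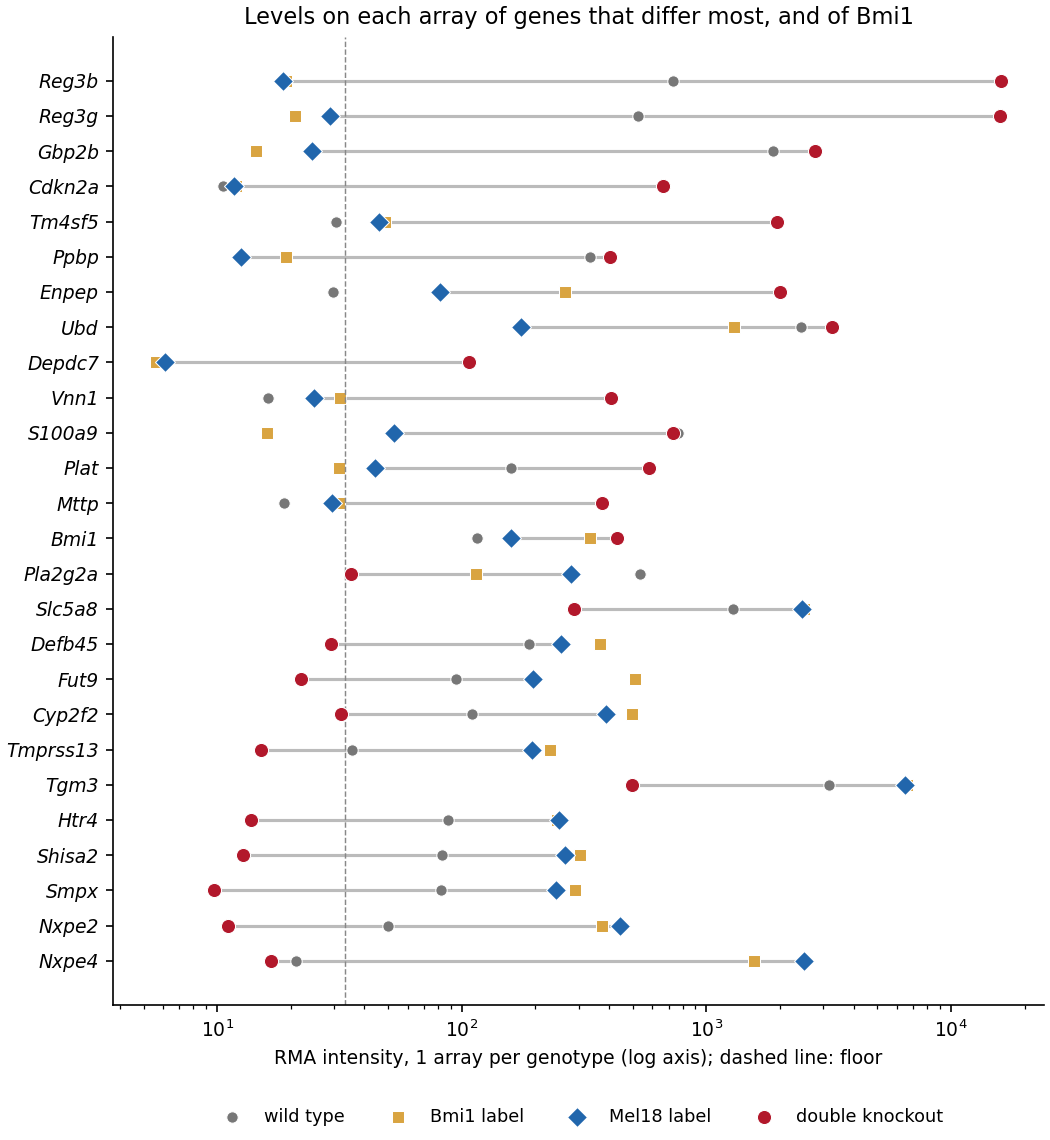
RMA intensity (x axis, log scale) of 26 genes on each of the 4 arrays, with a grey bar from the Mel18-labelled to the double-knockout-labelled value and a dashed line at the floor of 33.4. Each marker is 1 array, and where arrays read alike the wild-type or Bmi1-labelled marker is partly hidden. Reg3b, Reg3g, Gbp2b, Ppbp and S100a9 were low on the single-knockout-labelled arrays and high on wild type and double knockout, whereas Cdkn2a, Tm4sf5, Depdc7, Vnn1 and Mttp were high on the double-knockout-labelled array alone.

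Detoxification enzymes were called lower more often than higher, and most stayed within 2-fold. Of 41 xenobiotic metabolism genes at the floor, 9 were lower and 3 higher, with a median of -0.39. Cyp2f2, a cytochrome P450, read 109.8, 498, 387 and 32.1. The glutathione transferase Gstm1 read 1539, 2915, 2248 and 380.2, and 3 of its 4 probe sets were past 2-fold. Gstm1, Gstm2, Gstm3 and Gstm6, adjacent genes on chromosome 3, were all lower, between -2.56 and -1.36, but near-identical copies of this family can share signal. The carboxylesterase Ces1d and the glutathione transferase Gsta3 were under the floor on the double-knockout-labelled array and at least 3.07-fold and 4.11-fold lower. On the higher side were Cyp2c65, an epoxygenase, at 2.12, the aldo-keto reductase Akr1b8 at 1.40 and the drug exporter Abcg2 at 1.20. Steroid enzymes gave 4 lower and none higher of 14: Hsd3b3 read 55.8, 327, 352 and 103 and Cyp11a1, which starts steroid synthesis, 24.6, 96.7, 45 and 15.7, Hsd3b2 15, 39.6, 65.7 and 13.9 and Hsd11b2 as above. With values under the floor set to it, Cyp11a1 and Hsd3b2 no longer passed the rule, which left 2 lower.

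Many interferon-induced genes were higher and none of those listed was lower. Of the 33 antiviral genes at the floor, 18 were higher and none lower, with a median of 1.04 against -0.09 for all genes tested. Rsad2, which encodes the antiviral enzyme viperin, read 2376, 665, 569 and 1958, Ifit1, an RNA-binding effector, 1974, 1073, 728 and 2342, and Ddx60, a helicase, 246, 167, 95.5 and 329.6. Usp18, which restrains interferon signalling, read 449.9, 151, 114 and 370.0. In these genes the Mel18-labelled array was lowest, the Bmi1-labelled array next, and wild type close to the double knockout. Ifi44l departed from this, with 5.72, 119, 6.30 and 48.1, highest on the Bmi1-labelled array, and Isg20, an exonuclease, lay at -0.52.

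Groups that respond to interferon gamma differed in how many of their members were higher. Of 8 MHC class II genes at the floor, whose products show antigen to helper T cells, 7 were higher, with a median of 1.65. With values under the floor set to it 6 were higher, as H2-Oa no longer passed the rule. H2-Aa read 9492, 7052, 2495 and 6719, H2-Ab1 4882, 2599, 906 and 2907 and Cd74, the invariant chain, 4371, 3016, 827 and 2678. Their transactivator Ciita read 196, 76.7, 22.5 and 103. Macrophage and dendritic cell markers, from cells that carry these genes too, were higher for 7 of 25, and the part of such cells was not tested. The member within 2-fold was H2-DMb2 at 0.68. Here the Mel18-labelled array was lowest of the 4 for every gene named and wild type highest. MHC class I processing genes lay at a median of 0.47, with 1 of 14 higher, beside 3.84% of all genes tested. This was the peptide transporter subunit Tap1 at 1.01.

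Guanylate-binding proteins and immunity-related GTPases, which attack vacuoles of intracellular microbes, were higher for 7 of 11. Gbp2b read 1866, 14.4, 24.3 and 2787, under the floor on the single-knockout-labelled arrays and at least 83.5-fold higher on the double-knockout-labelled one. No other member came near that, with Gbp8 at least 2.58-fold higher, Gbp3 at 1.53 and Gbp2 at 0.43. Among effectors of interferon gamma, 6 of 15 were higher. They include the granzyme Gzmb and Ccl5, which are also counted among the T and NK cell markers. Ubd, a ubiquitin-like protein, read 2443, 1294, 174 and 3245, Ido1, which degrades tryptophan, 2123, 318, 220.0 and 1658, and the T cell chemokine Ccl5 271, 306, 129.6 and 576.

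Promoters of Rsad2 and Ifit1 are shown as examples of the interferon-stimulated response element, searched here on both strands as GAAANNGAAA. They are chr12:26456453-26456702 (minus strand) and chr19:34640639-34640888 (plus strand), with matches in capitals.
Rsad2: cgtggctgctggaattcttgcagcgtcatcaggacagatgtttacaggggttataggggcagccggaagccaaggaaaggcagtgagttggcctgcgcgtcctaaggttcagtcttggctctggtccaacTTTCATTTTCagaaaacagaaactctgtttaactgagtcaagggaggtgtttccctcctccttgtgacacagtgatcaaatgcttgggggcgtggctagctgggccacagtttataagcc
Ifit1: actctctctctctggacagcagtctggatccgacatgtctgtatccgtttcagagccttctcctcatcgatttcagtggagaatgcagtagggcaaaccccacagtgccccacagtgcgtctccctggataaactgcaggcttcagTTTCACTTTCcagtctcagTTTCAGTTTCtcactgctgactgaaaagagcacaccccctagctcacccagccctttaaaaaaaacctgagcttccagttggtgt
The motif matched once in the first window, 120 bases before the start, and 2 times in the second, 104 and 85 bases before it. It is found in 2.98% of all 32851 windows, in 3.17% of the 9584 genes tested that have a window, in 10.2% of the 343 higher genes and in 2.27% of the 440 lower genes. By list it was in 10 of 23 antiviral genes at the floor with a window (43.5%), in 7 of 8 guanylate-binding and immunity-related GTPases and in none of 5 MHC class II genes. A match is a description of letters and not evidence of binding.

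Cytokine and wound genes were higher in smaller shares. Of 23 cytokines and chemokines at the floor, 6 were higher. Il1b read 1161, 96.2, 129 and 928, the neutrophil attractant Cxcl2 836, 46.5, 51.8 and 413, and Ptgs2, the inducible prostaglandin synthase, 117, 15, 20.2 and 85. Wild type and double knockout were high and the single-knockout-labelled arrays low in these 3. The alarmin Il33 instead read 27.5, 33.6, 36.9 and 182, high on the double-knockout-labelled array alone, and Ccl28, an epithelial chemokine, lay at -0.88. Of 26 wound repair and EGFR ligand genes 9 were higher, with the EGFR ligand Ereg at least 1.95-fold higher and the urokinase receptor Plaur at 1.84. Egf was lower at -1.29. The secreted protease inhibitor Slpi read 9492, 1473, 2388 and 13527, the iron-binding protein Ltf 384, 62.4, 32.1 and 289 and the peroxidase Lpo 1384, 60.4, 70.4 and 603. Chac1, a stress-induced enzyme that degrades glutathione, read 113, 26.3, 29.6 and 210.2, and the plasminogen activator Plat 159.5, 31.6, 44.4 and 584. Cldn4, a tight junction claudin, read 671, 143, 194 and 732, while Cldn2 and Cldn15, which form cation pores, were lower at -1.77 and -1.90.

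Markers of cells other than epithelium moved with these groups. Of 13 neutrophil markers at the floor, 10 were higher (9 with values under the floor set to it) and none lower, with a median of 1.64. The summed intensity over the list was 3136, 472, 585 and 3066. S100a9, a calprotectin subunit, read 762, 16, 52.7 and 731, and Ppbp, a platelet chemokine placed on the list, 334, 19.2, 12.5 and 405. Mpo, Prtn3, Camp and Mmp8, granule genes of immature and mature neutrophils, were under the floor on both arrays. For T and NK cell markers 13 of 23 were higher (11 with values under the floor set to it), with a summed intensity of 2927, 2142, 1691 and 4523. The granzymes Gzma and Gzmb read 203, 100.4, 69 and 683 and 154, 79.5, 47.8 and 312, and Cd3g, a chain of the T cell receptor complex, 62.1, 68.6, 44.3 and 142. Unlike the neutrophil genes, Gzma was well above its wild-type value on the double-knockout-labelled array. Cd3e and Cd4 lay at 0.26 and 0.13.

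For macrophage and dendritic cell markers 7 of 25 were higher, with a median of 0.57 and a summed intensity of 10238, 8904, 9061 and 10867. Tyrobp, an adaptor of myeloid receptors, read 544, 135, 171 and 707, whereas C1qa and Adgre1, markers of resident macrophages, lay at 0.11 and 0.48. Laptm5, a lysosomal protein of blood cells, lay at 1.32, but at -0.041 when probe sets of the types that can match several transcripts were left out. The mucosal mast cell proteases Mcpt1 and Mcpt2 read 755, 111, 199.6 and 836 and 1446, 149.6, 234 and 1243, and 4 of 6 members of their list were higher and 1 lower, the receptor Kit. Of 29 fibroblast markers 1 was higher, near the 3.84% of all genes tested, with a median of 0.50. By sign, however, 26 of the 29 lay above 0, beside 4819 of all 11879 genes tested. Of 14 smooth muscle markers none was called. In these bulk samples fewer cells of a type and less RNA per cell cannot be told apart. The part of these cells in the interferon, cytokine and antimicrobial differences was not tested.

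Genes of cell division were mostly within 2-fold, and those past the rule in the replication and mitosis lists were lower. Of 36 genes of DNA replication and origin licensing at the floor, 7 were lower and none higher, with a median of -0.52, and of 32 mitosis genes 5 were lower and none higher, with a median of -0.75. Only 2 and 1 members of these lists lay above 0. Mcm6, a subunit of the replicative helicase, read 403, 422, 279 and 83.1, and its second probe set read 162, 237, 157 and 22.8. Dut, which keeps uracil out of DNA, read 214, 347, 244 and 101, and the polymerase subunit Pola1 97.3, 122, 75.9 and 33.3. In these 3 genes the Bmi1-labelled array was highest and the double-knockout-labelled array lowest. Mcm5, another helicase subunit, lay just inside the rule, and the mitotic kinase Ttk, at -0.99, just outside it. After centring on the genes that reach the floor 3 replication and 2 mitosis genes were called, and the medians stayed below 0 at -0.34 and -0.56. With values under the floor set to it 3 mitosis genes were called.

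In the mitosis list Mki67, the Ki-67 proliferation antigen, read 612, 464, 474 and 225, Nusap1, a spindle protein, 92.8, 175, 140.2 and 60.9, and Bub1, a checkpoint kinase, 56.4, 54.4, 48.3 and 21. Foxm1, a transcription factor of mitotic genes, lay at -0.13. E2F factors and cyclins were not uniformly lower. E2f8 lay at -1.07, but E2f2 read 167, 65.7, 74.5 and 227 and Ccnd2, cyclin D2, 2381, 3434, 2802 and 5854, both higher.

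The promoter of Mcm6, chr1:128359706-128359955 on the minus strand, is shown for its E2F sites, searched as TTTGGCGC, TTTCGCGC and TTTCCCGC on both strands and marked in capitals.
Mcm6: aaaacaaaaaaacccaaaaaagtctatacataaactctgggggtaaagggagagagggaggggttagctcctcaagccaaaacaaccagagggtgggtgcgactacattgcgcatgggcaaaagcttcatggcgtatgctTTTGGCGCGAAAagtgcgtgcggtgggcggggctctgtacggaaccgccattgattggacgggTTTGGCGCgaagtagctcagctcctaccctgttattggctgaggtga
It holds 3 matches, 110, 106 and 47 bases before the start, of which the first 2 overlap. Such a match was found in 1.53% of all 32851 windows, in 3.33% of the genes tested that have a window, in 8 of 29 replication genes at the floor (27.6%) and in 4 of the 7 that were lower. Over all called genes it was in 4.55% of the lower and 1.17% of the higher.

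Crypt stem cell markers were called lower more often than higher. Of 16 at the floor, 5 were lower and 1 higher, with a median of -0.47. After centring on the genes that reach the floor 5 were lower and 3 higher, with a median of -0.17. Quantile normalization gave the same counts, with a median of -0.40. Smoc2, a matrix protein of stem cells, read 42, 188, 94.9 and 20.2, Lrig1, a brake on EGFR signalling, 421, 737, 633 and 202, and the Wnt feedback gene Axin2 144, 239, 156 and 66. In all 3 the Bmi1-labelled array was highest and the double-knockout-labelled array lowest. Axin2 was no longer past the rule with the mean over probe sets. Lrig1 was no longer past it when every probe set had to pass, nor without probe sets of the types that can match several transcripts. Lgr5, the receptor that defines these cells, read 21.7, 93.6, 35.1 and 18.8 and was not called. Its Mel18-labelled value lay just above the floor and its double-knockout value under it, so the deposited difference of -0.90 is no exact size. Prom1 was higher at 1.22, and Sox9, a crypt transcription factor, lay at 0.96. Sox4 and Notch1, a progenitor transcription factor and a receptor that keeps progenitors from the secretory fate, were lower at -1.69 and -1.07. Among enteroendocrine markers 6 of 17 were higher and none lower. Tac1, which encodes substance P, read 1298, 227, 671 and 3064, and Cck, which encodes cholecystokinin, 13.1, 16.3, 15.7 and 68.2.

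**Figure D3:**
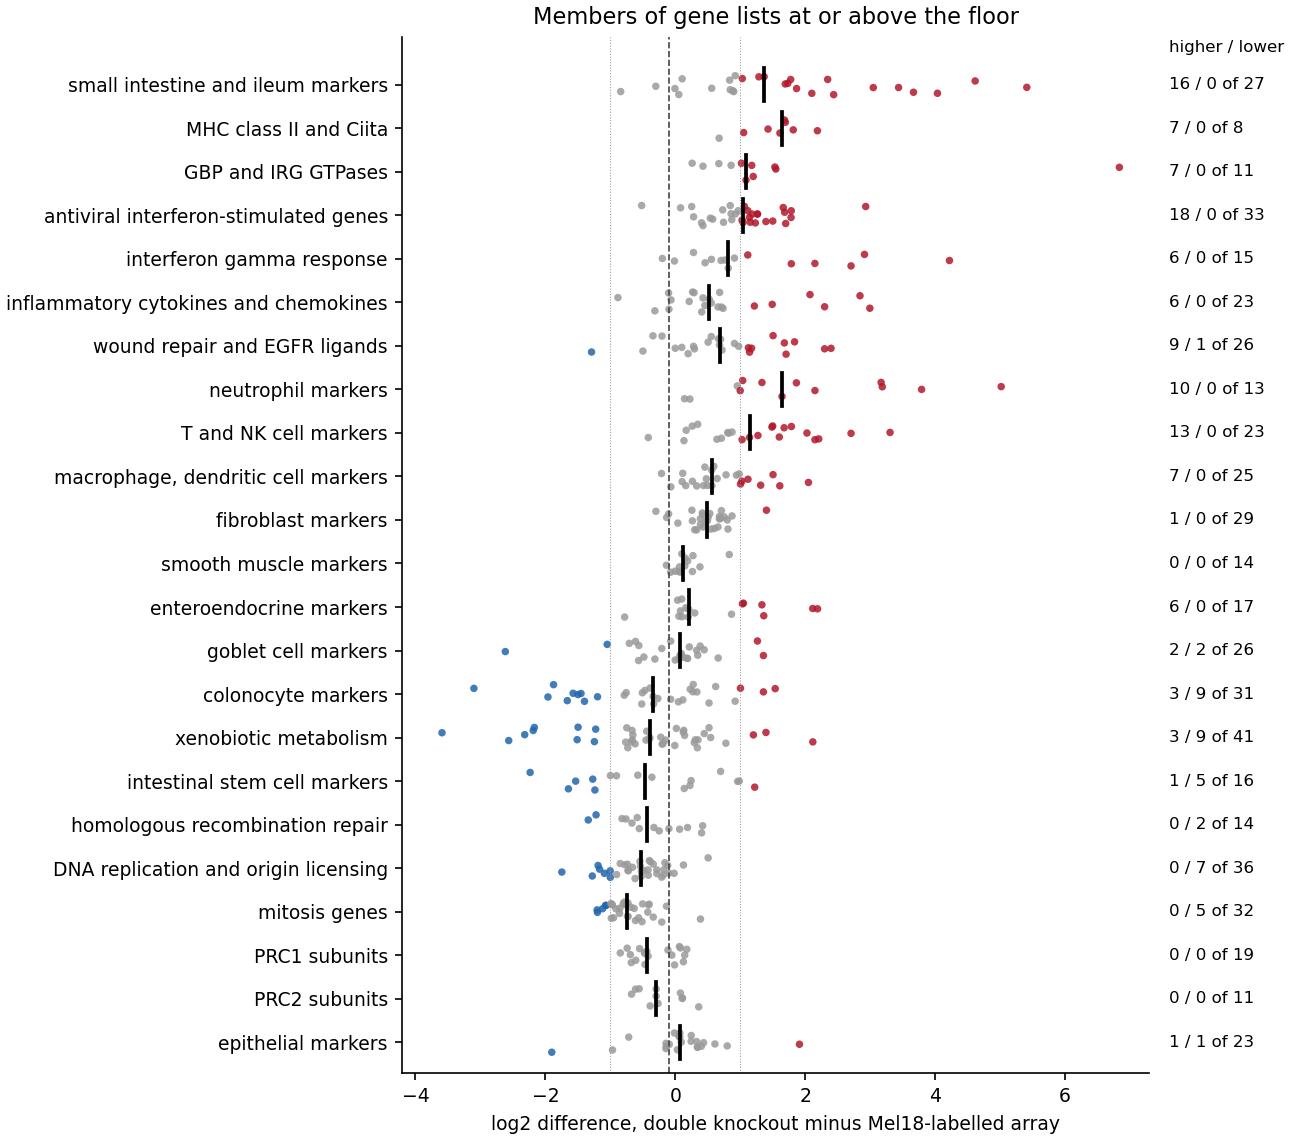
Each point is a list member at or above the floor, with its log2 difference between the double-knockout-labelled and the Mel18-labelled array (x axis), red where higher and blue where lower by the 2-fold rule. Black bars are list medians, the dashed line is the median of all genes tested at -0.09 and dotted lines mark 2-fold. Counts at the right give higher and lower members of those at the floor, from 18 and 0 of 33 antiviral genes to 0 and 7 of 36 replication genes.

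**Figure D4:**
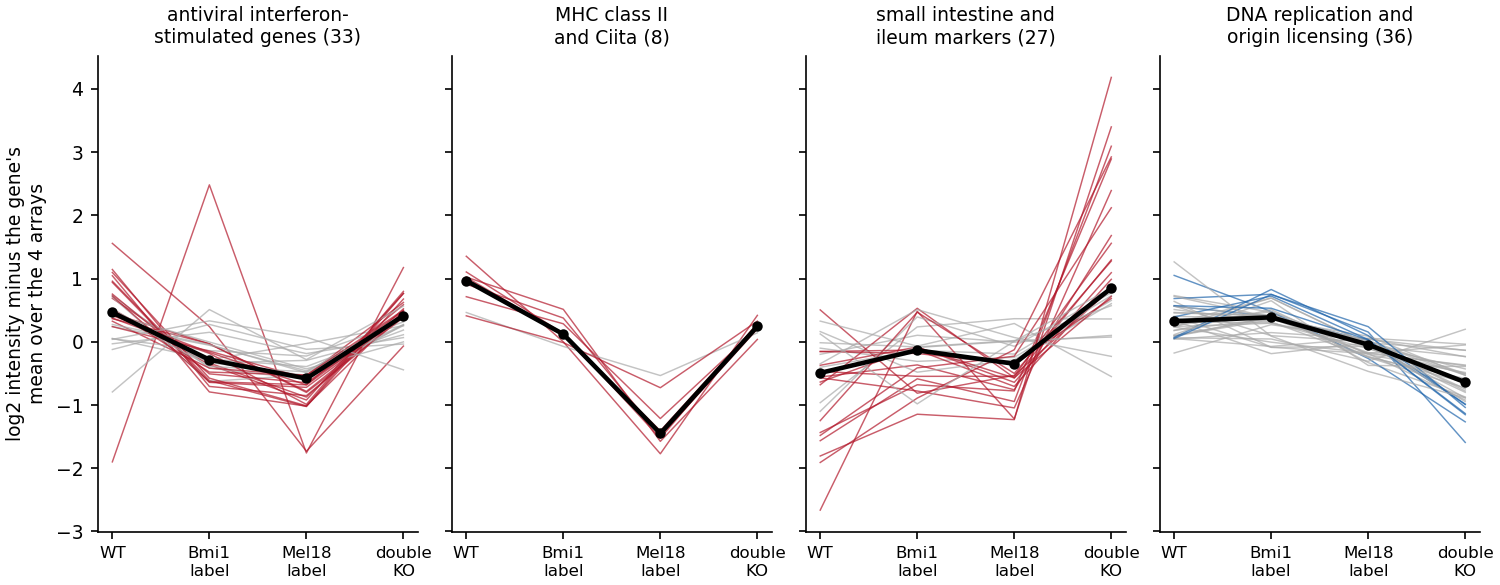
Log2 intensity of each list member at or above the floor minus that gene's mean over the 4 arrays (y axis), by array, for 33 antiviral, 8 MHC class II, 27 small intestinal and 36 replication genes. Coloured lines are genes called higher (red) or lower (blue) between the last 2 arrays, and black points are medians. The first 2 panels dip at the Mel18-labelled array, the third departs at the double knockout, and the fourth is lowest at the double knockout. The antiviral genes are low on the Bmi1-labelled array too, with a median difference from wild type of -0.75, beside -1.03 for the Mel18-labelled array.

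The Bmi1 label could be read on a second background, as the Bmi1-labelled minus the wild-type array, which shares no array with the comparison above. There 687 of 11934 genes were called higher (5.76%) and 341 lower (2.86%). Over the 11659 genes tested in both, the differences ran in opposite directions, with r = -0.61 and Spearman's rho = -0.62 across genes, given as a description since genes are not replicates and each difference is 1 array against 1. Past the rule in both, 345 genes went opposite ways and 22 the same way. The opposite genes were 142 that were higher in the double-knockout comparison and lower in the other, which is 31.1% of the 456 and 41.6% of the 341, and 203 the reverse, 37.7% of the 538 and 29.5% of the 687. The genes in the same direction were 19 higher in both, 4.17% and 2.77% of those lists, and 3 lower in both, 0.558% and 0.880%.

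Among the genes that went the same way, the named genes included Bmi1 itself, at 1.44 with the Mel18 label and 1.53 without it. Enpep was 24.6-fold higher with the Mel18 label and at least 7.92-fold higher without it. Cyp2c65 lay at 2.12 with the Mel18 label, but its wild-type value was under the floor and with values under the floor set to it the difference without the label was 0.85, within the rule. Ifi44l was under the floor on the Mel18-labelled and the wild-type array and at least 1.44-fold and at least 3.57-fold higher, so its call with the Mel18 label was lost in that way. Set to the floor in this way, 16 genes went the same way and 307 opposite ways. Otc, a urea cycle enzyme, Apoc2, a cofactor of lipoprotein lipase, and S100g, a calcium-binding protein of absorptive cells, were also higher in both, between 1.78 and 3.10 with the Mel18 label and between 1.31 and 1.72 without it, and Ces1c, a carboxylesterase under the floor on 2 arrays, was at least 2.76-fold and at least 2.19-fold higher. The 3 lower in both were Pla2g2a, at -2.98 and -2.23, the pump Atp12a, at -1.57 and -1.23, and Cpne2, a calcium-dependent membrane-binding protein, at -1.02 and -1.23.

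Among the opposite genes, Reg3b was at least 482-fold higher with the Mel18 label and at least 21.9-fold lower without it. For Gbp2b these bounds were 83.5-fold and 56-fold, and S100a9 was 13.9-fold higher and at least 22.8-fold lower. On the other side Nxpe4 was at least 74.8-fold lower with the Mel18 label and at least 46.8-fold higher without it, and the gluconeogenic enzyme Pck1 lay at -2.57 and 3.06. List medians were taken over the members at the floor on the double-knockout-labelled or the Mel18-labelled array, with values under it as deposited. The medians without the Mel18 label thus rest on members chosen by the other comparison. With and without that label, the medians were 1.64 and -1.91 for neutrophil markers, 1.04 and -0.75 for antiviral genes and -0.39 and 0.73 for xenobiotic metabolism. For small intestine and ileum markers they were 1.37 and 0.30, and for replication genes -0.52 and -0.02. Cdkn2a, at background on both arrays, could not be read on the wild-type background.

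**Figure D5:**
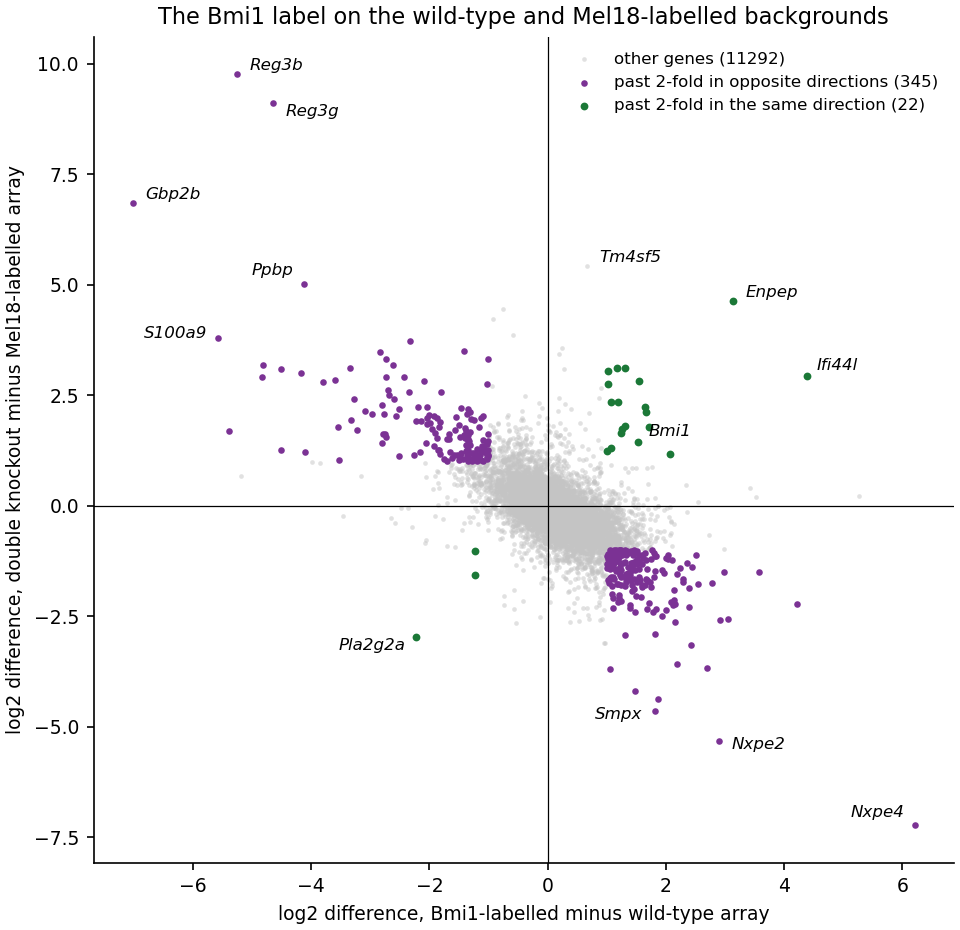
Each point is 1 of the 11659 genes tested in both differences, with its log2 difference between the Bmi1-labelled and the wild-type array (x axis) and between the double-knockout-labelled and the Mel18-labelled array (y axis). Purple marks the 345 genes past 2-fold in opposite directions and green the 22 past it in the same direction, among them Enpep, Ifi44l, Bmi1 and Pla2g2a, with values under the floor plotted as deposited.

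Called genes also lay side by side on chromosomes. Among genes at the floor in chromosome order, 11 runs of at least 3 neighbours were called in the same direction. The runs of higher genes included H2-Ab1, H2-Aa and H2-Eb1 on chromosome 17, Gbp7, Gbp3 and Gbp2b on chromosome 3 and the mast cell and lymphocyte proteases Mcpt1, Mcpt2 and Gzmb on chromosome 14. Carbonic anhydrases Car13, Car1 and Car3, at 1.24, 1.54 and 2.19, were adjacent on chromosome 3, as were the lymphocyte GTPases Gimap4, Gimap6 and Gimap7 on chromosome 6, of which Gimap4 and Gimap6 lay at 1.72 and 1.08 and Gimap7, at least 1.74-fold higher, rested on a value under the floor. Lower runs were the Gstm genes and Hsd3b2, Hsd3b3 and Hao2 on chromosome 3, and Repin1, Zfp775 and AI854703 on chromosome 6. Most of these are families of similar sequence, in which probe sets can share signal. By chromosome the called share went from 5.50% on chromosome 8 to 12.2% on chromosome 6, among autosomes.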

How the data were processed

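Intensities per probe set were deposited for 4 Affymetrix Mouse 430 2.0 arrays, 1 per genotype. Per the submitters' processing notes the authors used RMA in Affymetrix Expression Console, and the deposited intensity values are on a linear scale. Versions, and whether the arrays were summarised together, are not given in the sources used here. RMA models background, and differences of dim probe sets are compressed or unstable.

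The platform annotation gives a lone gene symbol to 34945 of the 45037 probe sets, and only these were used, since 932 carried several symbols and 9160 had no entry. Gene identifiers of 34741 matched RefSeq on GRCm38.p6, which gave current symbols and neighbours. Where a gene had several probe sets, the brightest on average stood for it. The log2 of the deposited intensity was taken with no pseudocount and no further scaling. A gene was called at a difference of at least 2-fold with its higher value at or above 33.4, the median of all values. With 1 array per genotype, the number of arrays limits the precision, and no p-value or SD across arrays exists.

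The members and the 60 gene lists were chosen with earlier results of these data known. Named genes were the 20 highest and 20 lowest, all probe sets of Bmi1 and Pcgf2, up to 6 called members per list and direction with members that show a list's range (such as Muc2 and Ttk, chosen after their values were seen), the 8 per direction that went the same or opposite ways on both backgrounds, and runs of at least 3 neighbours. Systematic names were counted (15 higher, 20 lower) and not named, except in runs. In all, 11 alternatives were tried, with 10 planned and 1 added after seeing the data. Scripts ran in Python 3.11.15 with pandas 2.3.3 and numpy 2.4.6 and were checked on simulated data.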

Additional observations from a re-analysis of the deposited data

Results flagged for a closer look

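For 16 genes the Bmi1 label went with opposite differences on its 2 backgrounds, and these were singled out as the 8 per direction, past the 2-fold rule on both, whose smaller difference of the 2 was largest. The value given for each is the difference with the Mel18 label minus the difference without it, in log2 units. None of these was tested, since each background has 1 array a side, and 13 of the 16 have a value under the floor on at least 1 array, so that their values are no exact sizes. With values under the floor set to it, they ranged from 4.51 to 13.37 on the side higher with the Mel18 label and from -11.77 to -2.72 on the other.

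On the side higher with the Mel18 label the values were 15.02 for Reg3b, 13.86 for Gbp2b and 13.76 for Reg3g. They were 9.37 for S100a9, 9.14 for Ppbp and 8.01 for S100a8, the other calprotectin subunit, then 7.61 for Lpo and 6.46 for Krt6b, a keratin of wounded and stratified epithelia. These 8 genes read low on the arrays with a single knockout label and high on the other 2. Krt6b read 156, 15.3, 18.8 and 163 and S100a8 935, 33.1, 93.4 and 851.

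On the other side the values were -13.44 for Nxpe4, -8.23 for Nxpe2, -6.44 for Tnfsf13os and -6.37 for Tmprss13. They were -5.62 for Pck1, -5.58 for Fut9, -5.50 for Cabcoco1 and -4.68 for Timp4, an inhibitor of metalloproteinases. Tnfsf13os, a transcript antisense to Tnfsf13, read 22.9, 427, 588 and 126, and Timp4 read 55, 287, 184 and 37.4.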

How the results depend on the processing

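No paired analysis was possible because the labels give no replicate numbers and each genotype has 1 array, and for the same reason no array could be left out. Counts of higher and lower genes moved by over 1.5 times under some alternatives to the 456 and 538 as deposited. With log2(value + 32) they were 288 and 303, and under a 1.5-fold rule 1024 and 1680. Lower genes were 349 with the mean over the probe sets of a gene and 347 with arrays centred on the median of their genes at or above the floor. Genes past the rule the same way on both backgrounds, 22 as deposited, were 10 with the floor at percentile 75, 9 with log2(value + 32) and 70 under the 1.5-fold rule. Those in opposite ways, 345 as deposited, were 224, 182 and 1343 in that order, and this count was added after seeing the data. The r across genes between the backgrounds ranged from -0.64 to -0.57 over the alternatives. Of the named genes past the 2-fold rule, only Laptm5 changed sign under any of these alternatives, to -0.041 without probe sets of the types that can match several transcripts. Of the same genes, 27 were no longer past it with the mean over probe sets, 52 with log2(value + 32), 29 when every probe set had to pass and 15 with values under the floor set to the floor, an alternative added after seeing the data. Intensities near the floor limit what dim genes can show: 116 of the 456 and 114 of the 538 have their lower value under it. With such values set to the floor, 17 antiviral genes, 8 wound repair genes and 5 antimicrobials outside the Reg family were higher. Among macrophage and dendritic cell markers 6 were higher, and among mast cell and eosinophil markers 3.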

Other observations

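Lists not described above also held called genes. Among lipid synthesis genes Scd2, a desaturase, read 6132, 4619, 4954 and 1813, Acly, which makes cytosolic acetyl-CoA, 3380.0, 3683, 3701 and 1658 and Fads2, another desaturase, 787, 1169, 994 and 407, all lower, while Me1, the malic enzyme, was higher with 76.2, 48.2, 34.3 and 113. Scd2, Fads2 and Me1 were no longer past the rule when every probe set at or above the floor had to pass. Acly was no longer past it with the mean over probe sets, nor after centring on the genes that reach the floor. The list as a whole has no direction, since its median changed sign with scaling. Of 16 ribosomal protein genes at the floor none lay above 0 as deposited, with a median of -0.38, and 2 were lower, Rps6 at -1.50 and Rpl14 at -1.29. The transferrin receptor Tfrc, placed among housekeeping genes, read 1247, 1769, 1625 and 609 and was lower at -1.42.

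Plagl1, an imprinted zinc finger factor, read 14.2, 19.9, 22.2 and 115, and the other imprinted growth genes at the floor were within 2-fold. Of the pro-death genes Bik and Bmf were lower at -1.72 and -1.13, while Bcl2l11, which encodes Bim, was higher at 1.48. Ripk3, the necroptosis kinase, read 382, 108, 124 and 461. Bcl2l11 was no longer past the rule with the mean over probe sets, nor without probe sets of the types that can match several transcripts. When every probe set had to pass, neither Bcl2l11 nor Bmf was past it. Clca4b, of the calcium-activated chloride channel regulator family, read 7839.6, 274, 784 and 5849, and the phospholipases Pla2g5 and Pla2g4a were lower at -2.34 and -1.41.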
